A study of Mus musculus with 24 samples.

Results

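The leukotriene pathway was examined in alveolar-like macrophages through 9 of the 55421 genes in the count table, chosen by symbol as the enzymes that make leukotrienes and the receptors that bind them. They were Alox5, Alox5ap, Lta4h, Ltc4s, Mgst2, Ggt5, Ltb4r1, Cysltr1 and Cysltr2. Each symbol matched 1 Ensembl identifier, and all 9 genes were among the 16593 that passed the filter on low counts. The rule used no measured value of these genes, although earlier results of these data were known when they were chosen.

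Leukotrienes are lipid mediators made from arachidonic acid, chiefly by myeloid cells. 5-lipoxygenase (5-LO, Alox5), presented with its substrate by the membrane protein FLAP (Alox5ap), forms the unstable epoxide LTA4. LTA4 hydrolase (Lta4h) turns LTA4 into LTB4, a chemoattractant for neutrophils, whereas LTC4 synthase (Ltc4s) joins it to glutathione to give LTC4, the parent of the cysteinyl leukotrienes that constrict airways and raise vascular leak.

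Bone marrow-derived macrophages (BMDMs) came from C57/B6/J wildtype (WT) mice and from AhR KO/KO mice (B6.129-Ahr tm1Bra/J), which lack a functional aryl hydrocarbon receptor in the germline and thus in every cell. The mice were adults of both sexes, and the study's methods state that animals of a comparison were matched for age and sex, although the Y-linked counts given below differ between the genotypes. All cultures received 10 ng/ml GM-CSF and 2 ng/ml TGF-β, and the stimulated cultures of each genotype were given 97 EU/ml LPS, the TLR4 ligand, on day 6 for 24 h. The treatment protocol is listed for every sample and ends with 5 µM of the Ca2+-ionophore A23187 for 10 min, so the unstimulated groups may have received the ionophore too. With 6 libraries in each of the 4 groups (unstimulated WT, LPS-stimulated WT, unstimulated AhR-deficient, LPS-stimulated AhR-deficient) there were 24 libraries, numbered 17 to 40.

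Between 45106052 and 76992663 fragments were counted on genes per library. Values are CPM, a gene's counts relative to the TMM-scaled total of its library, unless CPM per kb of exon is named. The latter divides by the deposited exon length of the gene, so ratios between genes depend on that length. Differences are log2 fold changes from edgeR's quasi-likelihood test, adjusted after Benjamini-Hochberg over all 16593 genes, and genes with an adjusted p of 0.05 or less that changed by 1 or more log2 units in either direction are called DEGs. Whether unstimulated and stimulated cultures shared animals is not stated in the labels, so p-values measure the spread between libraries only. Library numbers form 3 runs (17 to 24, 25 to 32, 33 to 40), and each run holds 2 libraries per group. The labels do not call the runs batches, and values within a run are differences of mean log2(CPM + 0.5).

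Ahrr, a feedback target of AhR, had 13.3 to 96.6 CPM in the WT libraries and 0 to 1.05 CPM in the AhR-deficient ones. Ahr itself was counted in every library, at 9.60 to 43.1 CPM in unstimulated WT, 6.57 to 27.9 in stimulated WT, 4.74 to 11 in unstimulated AhR-deficient and 21.4 to 63.8 in stimulated AhR-deficient BMDMs, and gene-level counts do not show which exons the allele lacks. Macrophage markers had counts for 7 of 7 genes in every group (summed level 12067 to 33677 CPM), and those of alveolar macrophages for 7 of 7 (2879 to 8320 CPM). Most of the latter was Chil3 and Car4, and 6 of the 7 alveolar genes, all but Car4, had a lower median after LPS in both genotypes. Siglecf went from a median of 64.6 to 7.42 CPM in WT and from 177 to 10.6 CPM in AhR-deficient cells, and Krt79 was between 0 and 0.397 CPM after LPS. Libraries 19 (unstimulated AhR-deficient) and 33 (unstimulated WT) stood apart by the lowest slopes of log2 CPM on gene length, −0.37 and −0.34 after centring. Libraries 34 (unstimulated WT) and 38 (LPS-stimulated WT) had at most 0.0979 CPM of Y-linked genes against at least 155 CPM in the other 22. Each WT group thus had 1 library without Y-linked expression and the AhR-deficient groups had none. Both libraries hold the second place of their group in the last run, and whether they or other such libraries came from 1 animal was not tested. If they did, the unpaired p-values treat related cultures as independent.

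LPS lowered Alox5, Lta4h and Ltc4s in both genotypes and raised Cysltr2 in both, while Mgst2 and Ggt5 were DEGs in AhR-deficient cells and not in WT. That difference did not pass edgeR's interaction test for either (adjusted p = 0.0638 and 0.124), but did with DESeq2 (0.0203 and 0.0443) and with each library's slope of log2 CPM on gene length, taken from the same counts, as a covariate (6.54e-05 and 0.0393). In WT, 4 of 9 were DEGs (1 higher, 3 lower), where 24.9% of all genes tested were DEGs (13.2% higher, 11.8% lower). In AhR-deficient BMDMs, 6 of 9 were DEGs (1 higher, 5 lower), against 30.8% of all genes (15.1% higher, 15.7% lower). The median log2 fold change of the 9 was −0.90 in WT and −1.38 in AhR-deficient cells, with medians over all genes of 0.03 and −0.03. When counts were scaled by total library size, the median of all genes shifted by −0.35 in WT and by −0.48 in AhR-deficient cells, and the share of DEGs that were higher went from 52.8% to 33.9% and from 49.1% to 28.2%. With that scale 6 of the 9 were DEGs in WT (1 higher, 5 lower, against 28.8% of all genes) and 8 in AhR-deficient cells (1 higher, 7 lower, against 36.9%). As single libraries were left out the WT count ran from 4 to 6, with 6 without library 33. The interaction of genotype and LPS, called at an adjusted p of at most 0.05 with no minimum fold, passed for 2 of 9 genes, both lower, against 4.30% of all genes (1.95% higher, 2.34% lower). This count depended on the fit. It was 4 with total library size (4.83% of all genes), 5 with DESeq2 (6.78%), 6 with the runs as a factor (7.24%), 8 with the length slope (17.4%) and 1, Ltc4s, with no filter on low counts (1.75%). All called genes were lower with DESeq2 and total library size, while Cysltr1 passed as higher with the runs, and Cysltr1 and Cysltr2 with the slope. Of the genes called in the interaction 45.4% were higher, and 31.4% with total library size.

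**Figure D1:**
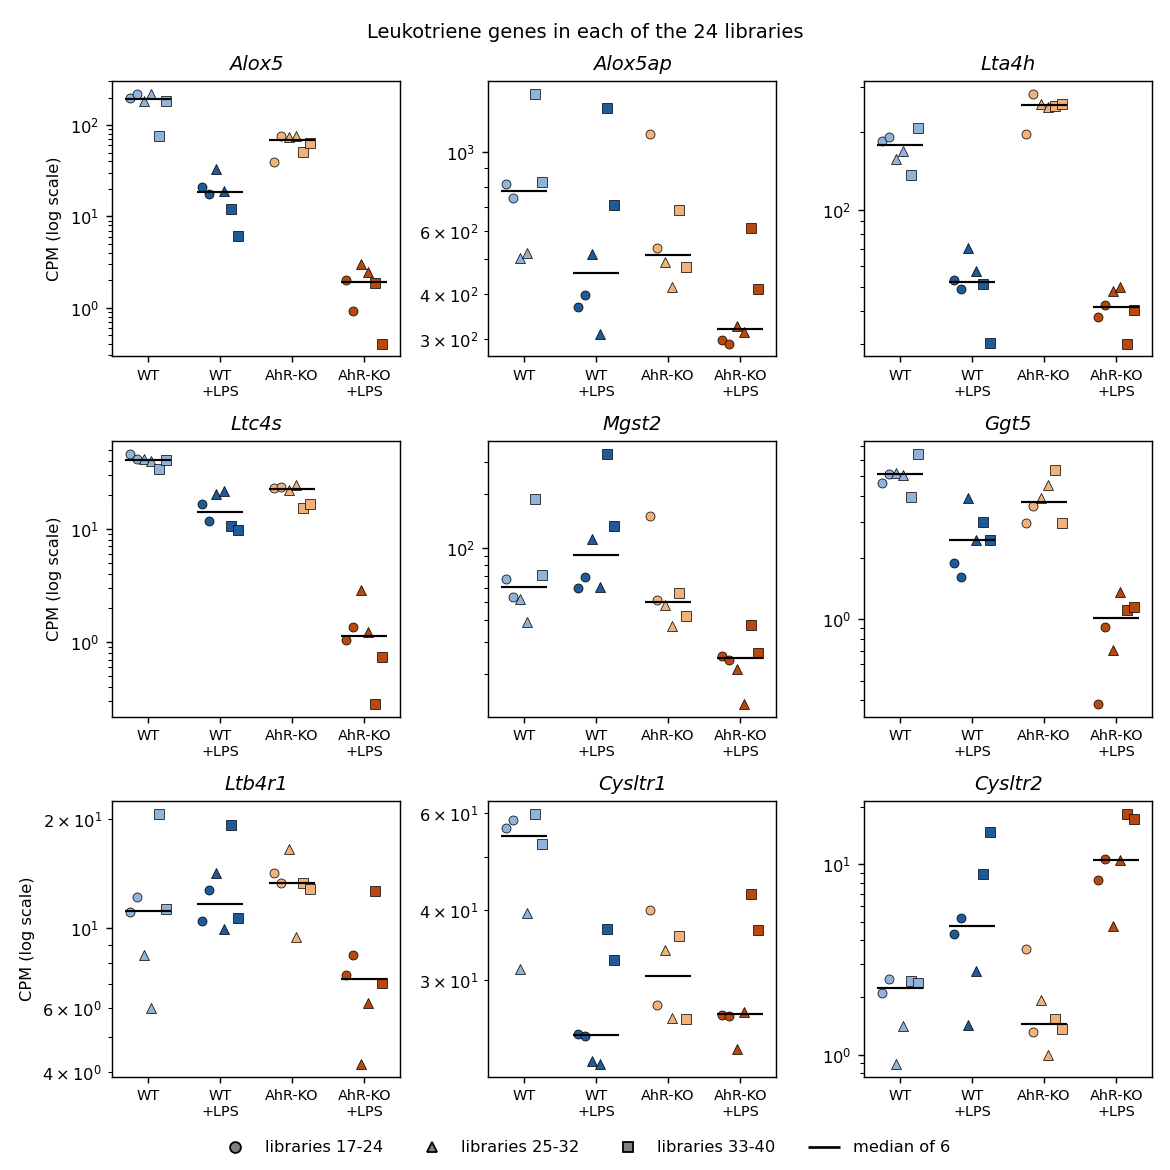
CPM (log axis) of each of the 9 genes in all 24 libraries, grouped by genotype and LPS, with the median of 6 as a line and the run of library numbers as the marker shape. Alox5 forms 4 separate levels and Ltc4s is lowest in the 6 stimulated AhR-deficient libraries, whereas Alox5ap, Ltb4r1 and Cysltr1 overlap between groups.

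Alox5 (ENSMUSG00000025701, chr6:116410077-116461178, minus strand of mm10), which encodes 5-LO, showed the largest decrease after LPS among the 9 genes in both genotypes. In the order of library numbers, which holds for all such lists here, unstimulated WT libraries had 200, 221, 184, 219, 76.7 and 184 CPM, and LPS-stimulated WT libraries 21, 17.7, 32.9, 18.9, 12 and 6.02 CPM. Unstimulated AhR-deficient libraries had 39.8, 75.4, 74.8, 76.2, 50.7 and 63.2 CPM, and after LPS 2, 0.91, 3.03, 2.44, 1.86 and 0.401 CPM. The 4 groups did not overlap, and library 33 held the lowest unstimulated WT value, just above the highest of unstimulated AhR-deficient cells. After LPS the AhR-deficient libraries held only 21 to 154 Alox5 counts each, against 3381 to 16418 in unstimulated WT.

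Stimulated cells had 9.99-fold less Alox5 in WT and 35.7-fold less in AhR-deficient BMDMs. On the log2 scale LPS changed Alox5 by −3.32 in WT (SE 0.41, 95% interval −4.17 to −2.47, adjusted p = 6.45e-07) and by −5.16 in AhR-deficient cells (SE 0.45, interval −6.09 to −4.23, adjusted p = 1.77e-09). Within the runs the WT effect was −3.42, −2.98 and −3.72, and the AhR-deficient effect −4.88, −4.56 and −5.29. The difference between these effects was −1.84 (SE 0.54, interval −2.95 to −0.72) with an adjusted p of 0.0554, which misses the threshold. It passed with DESeq2 (adjusted p = 0.0144), with the runs as a factor (0.0105), with the length slope as a covariate (0.00279) and without library 19, 31, 37 or 38 (0.0437, 0.0298, 0.0468 and 0.0205). AhR-deficient cells had less Alox5 in either state, by −1.51 without stimulation (adjusted p = 0.0151) and by −3.35 after LPS (adjusted p = 4.65e-06).

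Alox5ap (ENSMUSG00000060063, chr5:149264767-149288153, plus strand), which encodes FLAP, was no DEG after LPS in either genotype in the main fit over all 24 libraries with TMM scaling. Its libraries ran from 504 to 1459 CPM in unstimulated WT (median 779), from 309 to 1329 after LPS (median 457), from 420 to 1126 in unstimulated AhR-deficient cells (median 515) and from 290 to 613 after LPS (median 319). All 4 ranges overlapped. The LPS effect was −0.42 in WT (SE 0.34, interval −1.12 to 0.28, adjusted p = 0.356) and −0.73 in AhR-deficient BMDMs (SE 0.34, interval −1.43 to −0.03, adjusted p = 0.085), and total library size as the scale gave −0.79 (adjusted p = 0.0191) and −1.20 (adjusted p = 0.00063). Single libraries moved the WT value, to −0.16 without library 33 (adjusted p = 0.75) and to −0.80 without library 37 (0.0407), and the AhR-deficient value, to −0.47 without library 19 (0.27) and to −0.92 without library 39 (0.0357). Over the 12 other alternatives the adjusted p of the AhR-deficient effect ran from 0.00052 to 0.224, and only total library size made it a DEG. The interval in WT leaves out a decrease of the size seen for Alox5. On the opposite strand Gm19719 shares 13.3% of its exon bases, and the fragments were counted by strand. Per kb of exon, FLAP mRNA was in excess over 5-LO mRNA in all 24 libraries, with a median ratio of 10.7 in unstimulated WT (6.89 to 55.0), 57.9 in LPS-stimulated WT (45.5 to 340), 21.2 in unstimulated AhR-deficient (15.9 to 81.8) and 676 in LPS-stimulated AhR-deficient libraries (311 to 2969).

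**Figure D2:**
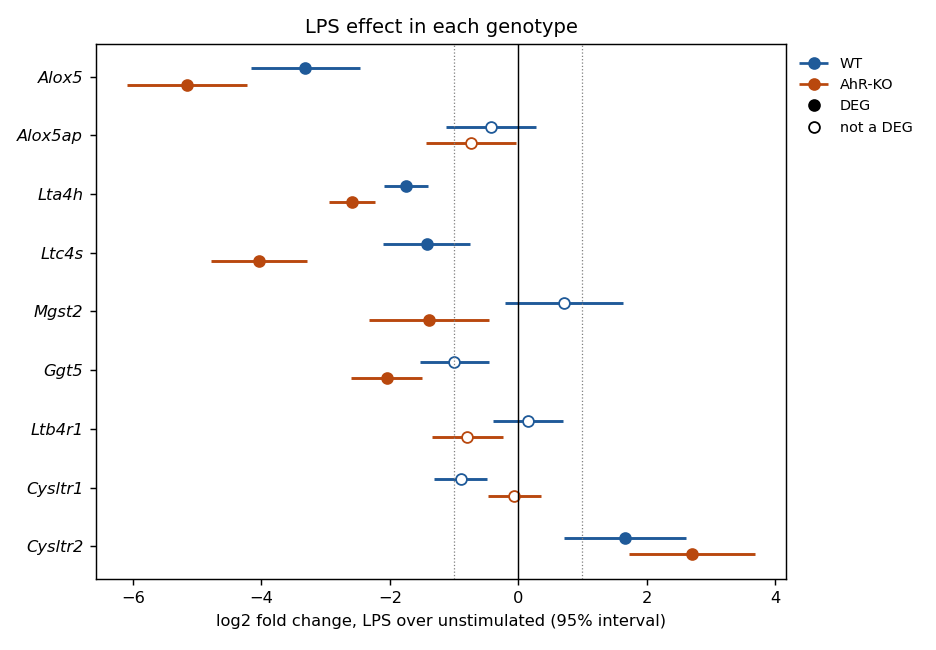
Log2 fold change of each gene after LPS in WT (blue) and AhR-deficient (orange) BMDMs with its 95% interval. Filled points are DEGs, dotted lines mark a log2 fold change of 1 in either direction, and Cysltr2 is the only gene of the 9 that was a DEG to the right of 0.

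Lta4h (ENSMUSG00000015889, chr10:93453411-93484875, plus strand), the enzyme of the LTB4 branch, was lower in every stimulated than in every unstimulated library of its genotype. It ran from 136 to 208 CPM (median 178) in unstimulated WT and from 30.1 to 70.7 CPM (median 52.2) after LPS. In AhR-deficient cells it ran from 196 to 284 CPM (median 256) without and from 29.9 to 49.8 CPM (median 41.5) with LPS. The stimulated ranges of both genotypes overlapped, although 5 of 6 unstimulated AhR-deficient libraries lay above every unstimulated WT library. The LPS effect was −1.75 in WT (SE 0.17, adjusted p = 1.22e-08) and −2.59 in AhR-deficient BMDMs (SE 0.17, adjusted p = 1.56e-11), and the difference of −0.84 passed the test (SE 0.23, interval −1.32 to −0.37, adjusted p = 0.0361).

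That difference was −0.66, −1.01 and −0.78 within the runs. It stood close to the threshold, and its adjusted p lay between 0.0501 and 0.0696 without library 17, 20, 21, 23, 25, 26, 27, 28, 29, 30, 33, 35, 36, 39 or 40 and was 0.0872 with no filter on low counts. Between genotypes Lta4h differed by 0.52 without stimulation (adjusted p = 0.0642) and by −0.33 after LPS (adjusted p = 0.24).

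Ltc4s (ENSMUSG00000020377, chr11:50236461-50238616, minus strand), the committed enzyme of the cysteinyl leukotriene branch, had the smallest interaction p of the 9 genes. Unstimulated WT libraries had 46.3, 41.3, 41.4, 40.1, 33.7 and 40.3 CPM, and LPS-stimulated WT libraries 16.5, 11.8, 20.2, 21.5, 10.5 and 9.84 CPM. Unstimulated AhR-deficient libraries had 23.1, 23.6, 22.1, 24.3, 15.2 and 16.6 CPM, and LPS-stimulated ones 1.05, 1.35, 2.91, 1.23, 0.284 and 0.745 CPM (11 to 148 counts). Every AhR-deficient library lay below every WT library in the same state, and every stimulated below every unstimulated one of its genotype.

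Stimulated cells had 2.69-fold less Ltc4s in WT and 16.4-fold less in AhR-deficient BMDMs. LPS changed Ltc4s by −1.43 in WT (SE 0.33, interval −2.10 to −0.75, adjusted p = 0.00112) and by −4.04 in AhR-deficient BMDMs (SE 0.36, interval −4.79 to −3.28, adjusted p = 3.03e-09). The interaction was −2.61 (SE 0.46, interval −3.57 to −1.65, adjusted p = 0.00136) and passed without each of the 24 libraries in turn and under all 10 other alternatives, with adjusted p of at most 0.00351. It was −2.20, −2.34 and −2.25 within the runs. Between genotypes Ltc4s differed by −0.96 without stimulation (adjusted p = 0.0882, a DEG at −1.0 with the runs as a factor) and by −3.57 after LPS (adjusted p = 2.63e-07). On the opposite strand Gm26542 shares 26.4% of its exon bases.

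Per kb of exon the balance of both branches moved. The median Lta4h level was 0.688 times that of Ltc4s in unstimulated WT libraries (0.631 to 0.859) and 0.559 times after LPS (0.446 to 0.807). In AhR-deficient libraries the ratio was 1.97 (1.41 to 2.78) without and 6.38 (2.75 to 17.5) with LPS. All 12 AhR-deficient libraries were thus above 1 and all 12 WT libraries below it. The lengths used were 6.102 kb for Lta4h and 1.014 kb for Ltc4s, over all annotated exons. The mRNA made may be shorter, so the side of 1 depends on these lengths, which were the same for every group.

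Mgst2 (ENSMUSG00000074604, chr3:51660360-51682677, plus strand) encodes a microsomal glutathione transferase that can also form LTC4. It ran from 38.7 to 186 CPM (median 60.6) in unstimulated WT and from 60.1 to 334 CPM (median 91.0) after LPS, with overlapping ranges. In AhR-deficient cells it ran from 36.9 to 150 CPM (median 49.9) without and from 13.6 to 37.4 CPM (median 24.5) with LPS. All LPS-stimulated AhR-deficient libraries were below all LPS-stimulated WT libraries, a difference of −2.38 (adjusted p = 9.25e-04), while the unstimulated groups differed by −0.29 (adjusted p = 1.0).

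The LPS effect on Mgst2 was 0.71 in WT (SE 0.45, interval −0.21 to 1.64, adjusted p = 0.227) and −1.38 in AhR-deficient BMDMs (SE 0.45, interval −2.32 to −0.45, adjusted p = 0.0151). Library 37 was the highest of stimulated WT, and without it the first was 0.17 (adjusted p = 0.776). The first was a DEG at 1.19 without library 33 (adjusted p = 0.0311), and the second was −0.93 without library 19 (adjusted p = 0.0781), the highest unstimulated library of each genotype. The interaction of −2.10 (SE 0.63) had an adjusted p of 0.0638. It passed under 5 of 10 alternatives, at −2.18 with total library size (adjusted p = 0.0163), −2.09 with DESeq2 (0.0203), −2.16 with the runs as a factor (0.0128), −2.18 with the length slope (6.54e-05) and −2.12 without both libraries (0.0178), and at −2.57 without library 33 alone (0.0112). Without library 37 it was −1.55 (adjusted p = 0.136). Per kb, the median ratio of Mgst2 to Ltc4s was 0.378 in unstimulated WT (0.265 to 1.51), 1.57 in LPS-stimulated WT (0.772 to 8.69), 0.645 in unstimulated AhR-deficient (0.416 to 1.78) and 5.68 in LPS-stimulated AhR-deficient libraries (2.00 to 36.1).

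**Figure D3:**
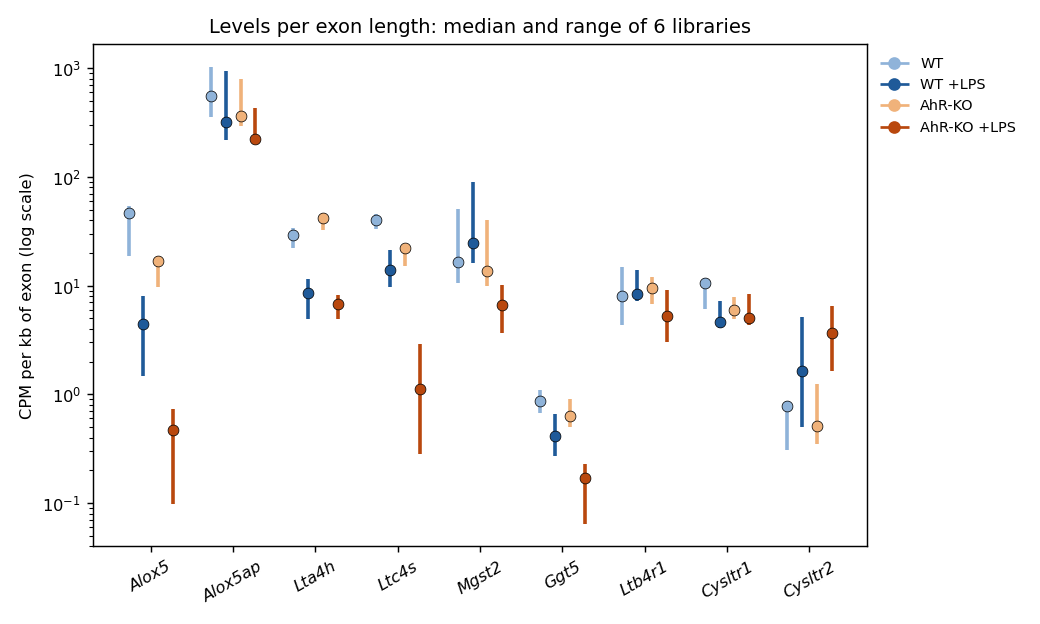
CPM per kb of exon (log axis) of the 9 genes, with the median as a point and the lowest to highest of 6 libraries as a line for each group. Alox5ap is above the other 8 genes in every group. For Alox5, Ltc4s and Ggt5 the range of LPS-stimulated AhR-deficient cells lies below that of every other group. The median is lowest in that group for all genes but Cysltr1 and Cysltr2.

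Upstream sequences were compared for the enzymes that differed most between genotypes after LPS. RefSeq promoters (GRCm38.p6, the build behind mm10) were found for 6 of the 9 genes, namely Alox5, Lta4h, Ltc4s, Mgst2, Ltb4r1 and Cysltr2, and the 250 bases before each start were searched on both strands. The core motif to which AhR binds, GCGTG with its reverse complement CACGC, was in none of the 6, whereas 28.2% of all 32851 promoters held it in the same window. The GC box bound by Sp1-type factors, GGGCGG or CCGCCC, was in Alox5 and Ltb4r1, with its first base 35 and 31 bases before the start, and in 32.7% of all promoters. The Alox5 promoter (chr6:116461179-116461428, minus strand), that of Ltc4s (chr11:50238533-50238782, minus strand) and that of Mgst2 (chr3:51660929-51661178, plus strand) are shown 5′ to 3′ with the GC box in capitals. The RefSeq starts of Ltc4s and Mgst2 lie within the gene spans given above. A missing match says only that these letters are not in this window.
Alox5: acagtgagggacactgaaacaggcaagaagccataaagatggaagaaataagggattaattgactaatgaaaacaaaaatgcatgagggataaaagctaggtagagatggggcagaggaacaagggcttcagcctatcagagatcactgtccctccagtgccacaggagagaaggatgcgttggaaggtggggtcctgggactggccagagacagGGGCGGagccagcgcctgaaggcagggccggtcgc
Ltc4s: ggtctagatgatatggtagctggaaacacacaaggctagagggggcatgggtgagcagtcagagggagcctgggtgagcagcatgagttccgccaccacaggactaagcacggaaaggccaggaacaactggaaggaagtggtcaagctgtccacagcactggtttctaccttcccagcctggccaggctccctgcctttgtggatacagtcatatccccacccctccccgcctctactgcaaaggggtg
Mgst2: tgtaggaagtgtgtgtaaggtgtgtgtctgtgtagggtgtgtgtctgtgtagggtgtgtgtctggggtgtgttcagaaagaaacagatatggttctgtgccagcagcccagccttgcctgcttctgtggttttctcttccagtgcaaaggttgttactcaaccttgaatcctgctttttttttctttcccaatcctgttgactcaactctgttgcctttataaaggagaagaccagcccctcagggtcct

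Ggt5 (ENSMUSG00000006344, chr10:75589340-75617200, plus strand), the γ-glutamyltransferase that converts LTC4 to LTD4, was a low gene that was lower after LPS. It ran from 3.97 to 6.46 CPM (median 5.11) in unstimulated WT and from 1.61 to 3.92 CPM (median 2.44) after LPS, and in AhR-deficient cells from 2.97 to 5.36 CPM (median 3.75) to 0.384 to 1.35 CPM (median 1.01). Stimulated and unstimulated libraries did not overlap in either genotype. The LPS effect was −2.05 in AhR-deficient cells (SE 0.27, adjusted p = 9.74e-07) and −0.99 in WT (SE 0.26, adjusted p = 0.00363), which was no DEG for its size and became one without library 17, 29, 33 or 37 (−1.02 to −1.16) and under 9 of 12 other alternatives. After LPS the genotypes differed by −1.45 (adjusted p = 4.71e-04) and did not overlap, and the interaction was −1.06 (adjusted p = 0.124). It passed at −1.04 with DESeq2 (adjusted p = 0.0443) and with the length slope (0.0393), and did not pass as single libraries were left out (0.0797 to 0.227).

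Among the receptors, Cysltr2 rose after LPS in both genotypes, whereas Ltb4r1 and Cysltr1 gave no DEG in the fit over all 24 libraries with TMM scaling, and 1 each with total library size. Cysltr2 (ENSMUSG00000033470, chr14:73025603-73049114, minus strand) is a G protein-coupled receptor for the cysteinyl leukotrienes. Unstimulated WT libraries had 2.1, 2.49, 0.891, 1.41, 2.43 and 2.38 CPM, and LPS-stimulated WT libraries 4.29, 5.21, 1.44, 2.74, 8.93 and 14.7 CPM. Unstimulated AhR-deficient libraries had 3.6, 1.32, 1.94, 0.993, 1.55 and 1.36 CPM, and LPS-stimulated ones 8.32, 10.7, 4.72, 10.5, 18.4 and 17.3 CPM. The AhR-deficient groups did not overlap, while in WT 1 stimulated library, number 29, lay within the unstimulated range.

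Stimulated cells had 3.18-fold more Cysltr2 in WT and 6.51-fold more in AhR-deficient BMDMs. LPS changed Cysltr2 by 1.67 in WT (SE 0.46, interval 0.72 to 2.62, adjusted p = 0.00549) and by 2.70 in AhR-deficient cells (SE 0.48, interval 1.72 to 3.69, adjusted p = 5.3e-05). Within the runs the WT effect was 0.90, 0.62 and 2.04, and the AhR-deficient effect 1.86, 1.99 and 3.23. The interaction of 1.03 had an adjusted p of 0.588, and passed at 1.08 with the length slope alone (0.0492). Between genotypes after LPS the difference was 0.91 (adjusted p = 0.231), which passed at 1.37 without library 38 (adjusted p = 0.0406) and at 1.07 with the runs as a factor (adjusted p = 0.0338).

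Cysltr1 (ENSMUSG00000052821, X:106574346-106603679, minus strand), the receptor with high affinity for LTD4, ran from 31.3 to 59.7 CPM (median 54.5) in unstimulated WT and from 21.1 to 37.0 CPM (median 23.8) after LPS. The AhR-deficient libraries had 25.5 to 40.1 CPM (median 30.5) without and 22.5 to 42.8 CPM (median 26.1) with LPS. Unstimulated WT was thus the only group with a median above 40 CPM. In WT the LPS effect was −0.90 (SE 0.20, interval −1.31 to −0.49, adjusted p = 8.41e-04), below the fold needed for a DEG and a DEG at −1.0 without library 25 and at −1.25 with total library size. In AhR-deficient cells it was −0.06 (SE 0.20, interval −0.47 to 0.35, adjusted p = 0.836), and −0.54 with total library size (adjusted p = 0.00385). The interaction of 0.84 (interval 0.26 to 1.41) had an adjusted p of 0.105. It passed at 0.80 with the runs as a factor (adjusted p = 0.0207), at 0.74 with the length slope (0.00102) and at 0.94 without library 25 (0.0482). The genotypes differed by −0.66 without stimulation (adjusted p = 0.0465, not a DEG) and by 0.17 after LPS (adjusted p = 0.741), where the sign turned to −0.04 with total library size.

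Per kb of exon, Cysltr1 stood above Cysltr2 in all 24 libraries, and the gap narrowed after LPS. Its median ratio to Cysltr2 was 14.3 (12.3 to 19.6) in unstimulated WT and 2.83 (1.24 to 8.31) after LPS. In AhR-deficient libraries it was 11 (6.22 to 14.4) without and 1.37 (1.19 to 2.66) with LPS.

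Ltb4r1 (ENSMUSG00000046908, chr14:55765962-55768494, plus strand), the high-affinity LTB4 receptor, had an LPS effect near 0 in WT. It ran from 6.01 to 20.7 CPM (median 11.2) without and from 9.96 to 19.3 CPM (median 11.7) with LPS. In AhR-deficient cells the range was 9.45 to 16.5 CPM (median 13.3) without and 4.21 to 12.7 CPM (median 7.25) with LPS, and 5 of 6 stimulated libraries were below all unstimulated ones. The LPS effect was 0.15 in WT (SE 0.26, interval −0.39 to 0.69, adjusted p = 0.702), which turned to −0.17 with total library size, and −0.79 in AhR-deficient cells (SE 0.26, interval −1.34 to −0.24, adjusted p = 0.0172), below the fold of a DEG but a DEG at −1.29 with total library size (adjusted p = 4.4e-05). The interaction was −0.94 (adjusted p = 0.209). It passed at −1.12 with total library size (adjusted p = 0.0401), at −1.06 with the runs as a factor (0.0474), at −1.16 with the length slope (0.00478) and at −1.19 without library 33 (0.0455). After LPS the genotypes differed by −0.75 (adjusted p = 0.0672).

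**Figure D4:**
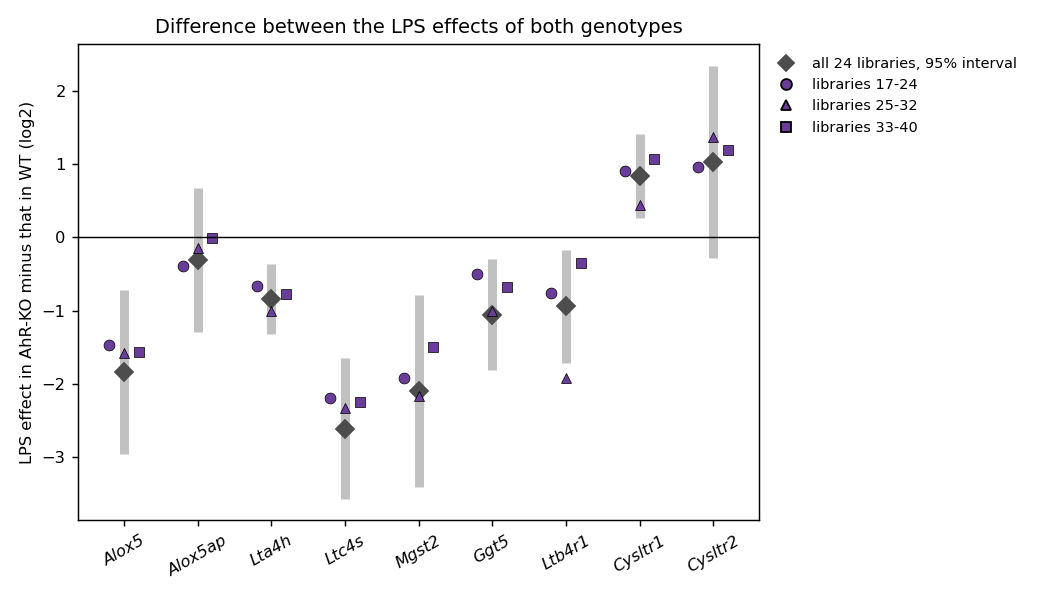
LPS effect in AhR-deficient minus that in WT BMDMs (log2) for the 9 genes, with the estimate over all 24 libraries as a diamond, its 95% interval as a grey bar and the value within each run of library numbers as a smaller marker. Ltc4s lies at −2.61, and 7 of 9 estimates are below 0.

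In the direct comparison of genotypes, 4 of 9 genes were DEGs after LPS, all lower in AhR-deficient cells (Alox5, Ltc4s, Mgst2 and Ggt5), where 8.36% of all genes were DEGs (2.17% higher, 6.19% lower). Without stimulation 1 of 9 was a DEG, Alox5, against 4.48% of all genes (0.916% higher, 3.57% lower). These comparisons share libraries with those of LPS and are not separate evidence. The median difference of the 9 genes was −0.75 after LPS and −0.38 without, and over all genes −0.05 and −0.01.

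Markers of other cells that express this pathway also differed between the groups. Neutrophil markers had counts for 8 of 8 genes in every group, with a summed level of 305 to 1436 CPM in unstimulated WT, 116 to 816 in LPS-stimulated WT, 46.3 to 92.3 in unstimulated AhR-deficient and 23.7 to 81.2 in LPS-stimulated AhR-deficient libraries, and Mpo was at most 0.343 CPM anywhere. The medians of 8 of 8 neutrophil genes were lower in AhR-deficient than in WT cells in either state, and those of 7 of 8 in WT and 6 of 8 in AhR-deficient cells were lower after LPS, the directions of Alox5 and Ltc4s. Cxcr2, a chemokine receptor of neutrophils, had medians of 13.1, 3.15, 3.77 and 0.616 CPM in the same order. Those of mast cells and basophils had counts for 9 of 10 genes in both unstimulated groups, where Mcpt4 was at 0, and for 10 of 10 after LPS, with summed levels of 8.38 to 28.4, 333 to 516, 2.33 to 4.84 and 534 to 836 CPM in the same order. After LPS nearly all of this was Hdc, histidine decarboxylase (312 to 477 and 528 to 823 CPM), the only one of these genes above 22 CPM. After LPS 7 of the 10 had a lower median in AhR-deficient than in WT cells. Cpa3, the mast cell carboxypeptidase, had medians of 5.60, 10.7, 1.39 and 1.84 CPM in the same order of groups, Kit 3.62, 15.8, 0.906 and 3.73 CPM, and Gata2 3.12, 7.55, 0.0647 and 0.171 CPM, so these were lower in AhR-deficient cells and not lower after LPS.

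Dendritic and Langerhans cell markers summed to 74.5 to 211, 580 to 2453, 10.1 to 19.1 and 100 to 894 CPM in that order, mostly Ccr7 after LPS, with 8 of 8 genes counted without LPS, Cd209a at 0 in stimulated WT and Cd207 at 0 in stimulated AhR-deficient cells. Yet 5 of the 8 genes had a lower median after LPS in either genotype, and 7 of 8 without and 6 of 8 with LPS were lower in AhR-deficient than in WT cells. Epcam (medians 80.7, 10.5, 1.03 and 0.0505 CPM) and Cd207 (34.1, 1.04, 0.00757 and 0 CPM), both known from Langerhans cells, were lower after LPS and lower in AhR-deficient cells, as Alox5 and Ltc4s were. Eosinophil markers (4 of 4 counted) summed to 25.4 to 181, 15.5 to 147, 22.6 to 117 and 14.6 to 93.0 CPM. The medians of 3 of these 4 genes were lower in AhR-deficient than in WT cells in either state. After LPS the median of 1 of the 4 was lower in WT, and that of 3 of the 4 in AhR-deficient cells. Lymphocyte markers summed to at most 0.310 CPM. The part of other cells in the values of Alox5, Ltc4s and the remaining genes was not tested. In these bulk libraries fewer cells of a type and less RNA per cell cannot be told apart.

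Other genes of the pathway moved in both directions. Of 15 listed genes 14 had 1 identifier (Dpep2 had more and was left out), and 9 of these passed the filter. In WT 4 of the 9 tested were DEGs after LPS (2 higher, 2 lower), against 24.9% of all genes (13.2% higher, 11.8% lower), and in AhR-deficient cells 6 (3 higher, 3 lower), against 30.8% (15.1% higher, 15.7% lower). The interaction had adjusted p between 0.0734, for Pla2g4a, the cytosolic phospholipase that frees arachidonic acid, and 1.0. For Pla2g4a it passed with total library size, DESeq2, a filter on mean CPM, the runs or the length slope (0.60 to 0.77, adjusted p 0.00348 to 0.0418) and without library 35 or 37. The median effect was −0.03 in WT and 0.67 in AhR-deficient cells.

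Pla2g4a rose from 62.5 to 79.7 CPM to 107 to 202 CPM in WT, by 1.0 (SE 0.16, adjusted p = 2.21e-05), and from 55.8 to 85.5 CPM to 174 to 286 CPM in AhR-deficient cells, by 1.73 (SE 0.16, adjusted p = 6.44e-09). Its WT value lay at the fold of a DEG and fell short of it under 6 of 12 alternatives (0.64 with total library size, otherwise 0.94 to 0.99) and without library 18, 25, 26, 29, 34 or 37 (0.88 to 0.99). Mgst3, a relative of Mgst2, fell by 1.71 in WT (adjusted p = 3.59e-05) and by 2.19 in AhR-deficient cells (adjusted p = 1.11e-06). Cotl1, an actin-binding protein that also binds 5-LO, was changed by −0.85 in WT (adjusted p = 5.09e-05, no DEG) and fell by 1.19 in AhR-deficient cells (adjusted p = 3.79e-07).

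Abcc1, the transporter that exports LTC4, rose by 1.95 in WT (SE 0.71, adjusted p = 0.0323) and by 2.04 in AhR-deficient cells (SE 0.71, adjusted p = 0.022), with a wide range between libraries of 18.7 to 282 CPM in stimulated WT. Its WT call was lost without library 17, 18, 29, 30, 33 or 34 (adjusted p 0.0526 to 0.104) and its AhR-deficient call without library 31 or 32 (0.0557 and 0.0708), and both were lost with total library size (0.087 and 0.0903). The WT call was also lost with limma-voom (0.0852), no filter on low counts (0.0519) and Y-linked expression as a covariate (0.0584). Cyp4f18, which breaks down LTB4 by hydroxylation, ran from 31.8 to 178 CPM in stimulated WT and from 166 to 674 CPM in stimulated AhR-deficient libraries, a difference of 1.99 (SE 0.37, adjusted p = 4.96e-04). Its LPS effect was 1.40 in AhR-deficient cells (adjusted p = 0.00258), which was 0.93 and no DEG with total library size. It was −0.03 in WT (adjusted p = 0.957), where it was of either sign as single libraries were left out (−0.28 to 0.15), and the interaction of 1.44 had an adjusted p of 0.131, which was 0.00587 with the runs as a factor and 0.00127 with the length slope.

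Ltb4r2, the low-affinity LTB4 receptor gene beside Ltb4r1, shared no exon bases with it and was near the limit of detection, with 145 counts over the 6 unstimulated WT libraries and 27 over the stimulated ones, and 77 and 10 in AhR-deficient cells. It fell by 2.13 in WT (adjusted p = 0.0246) and fell by 2.37 in AhR-deficient cells (adjusted p = 0.0185). The WT call was lost with no filter (adjusted p = 0.0559) and without library 25, 29 or 30, and the AhR-deficient one without library 27 (adjusted p 0.0506 to 0.0593). Of the 5 listed genes that did not pass the filter, Dpep1, Dpep3, Cyp4f14, Oxgr1 and Gpr17, none had more than 22 counts over the 6 libraries of a group, and Gpr17 had none in any library.

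**Figure D5:**
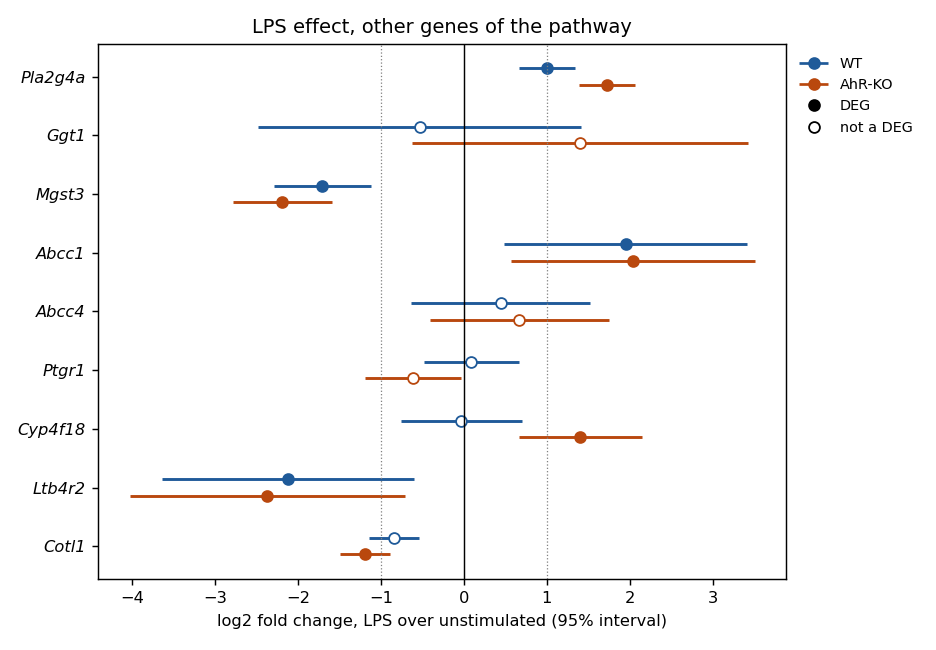
Log2 fold change after LPS of the 9 other pathway genes tested, in WT (blue) and AhR-deficient (orange) BMDMs with 95% intervals, filled where the gene was a DEG. Pla2g4a and Abcc1 lie to the right of 0 and Mgst3 and Ltb4r2 to the left in both genotypes, and the intervals of Ggt1, which had few counts, are the widest.

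Genes with a pattern close to that of Alox5 and Ltc4s were sought by the mean absolute difference of centred log2(CPM + 0.5) over the 24 libraries, among 5001 genes that averaged 1 CPM or more and had group means that ranged over at least 1 log2 unit. Closest to Alox5 were Ptgs1 (0.56), which encodes cyclooxygenase-1, Prom1 (0.66), Fam189a2 (0.68), Spn (0.70) and B3gnt7 (0.72), with a median of 2.22 over the genes compared. Ptgs1 had group means of 234 CPM in unstimulated WT, 28.6 in stimulated WT, 36.9 in unstimulated AhR-deficient and 1.74 in stimulated AhR-deficient cells. Closest to Ltc4s were Fam189a2 (0.41), Kcnk13 (0.44), Gcnt1 (0.46), Vrk1 (0.53) and Cd101 (0.57), with a median of 1.65. These values are a description, since all genes share the 24 libraries and their depth.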

How the data were processed

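RNA sequencing of BMDMs gave 24 libraries in 4 groups of 6 (polyA RNA, directional kit, paired reads), with 6 animals per group in 1 experiment per the study's methods. The authors deposited raw counts: fragments aligned to mm10 with GSNAP and counted on Ensembl release 98 by featureCounts 2.0.1, by strand and with a mapping quality of at least 1, after demultiplexing with bcl2fastq 2.20.0. The table also holds exon lengths and 92 spike-ins, which had 1 count in all and were left out. No normalization had been applied. Symbols came from GENCODE vM21, which named 55154 of the 55421 genes, positions from the deposited count table, and promoters from RefSeq.

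All 24 libraries entered 1 fit in edgeR 4.0.16 (R 4.3.3) that had TMM factors, 1 coefficient for every group, filterByExpr and the robust quasi-likelihood F-test. The study used DESeq2 with the same thresholds for a DEG, and here DESeq2 1.42.0 is an alternative. At 45106052 to 76992663 counts per library, counting noise is small beside the biological coefficient of variation of 49.1% for all but the lowest genes. Standard errors are the log2 fold change over the root of F. Exact overlaps of exons were taken on both strands. Tests were tried on simulated counts first.

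Alternatives were DESeq2 size factors, total library size, DESeq2, limma-voom (limma 3.58.1), either no filter or one on mean CPM (1 or more), the runs, the length slope or Y-linked expression as covariates, only the 12 libraries compared, no minimum fold change and each library left out. Leaving out libraries 19 and 33 together was added after seeing the data. The 9 genes, the wider list, the markers and the rule for named genes (all 9, other pathway genes past the threshold after LPS, Ltb4r2, Ahr and Ahrr, and the 5 genes most like Alox5 and Ltc4s) were chosen with earlier results of these data known. Python 3.11.15 with pandas 2.3.3, numpy 2.4.6 and matplotlib 3.10.9 made summaries and plots. Chromatin and lipid data of the study were not analysed here.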

Additional observations from a re-analysis of the deposited data

Results flagged for a closer look

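Of the 36 groups of 6 libraries (9 genes in 4 groups), 6 had a highest or lowest library far from the others by Dixon's criterion, where chance gives about 1 in 20 groups. Library 33 was apart in 3 of them within unstimulated WT, with the lowest Alox5 (76.7 CPM) and the highest Alox5ap (1459 CPM) and Mgst2 (186 CPM). Library 19 was apart in unstimulated AhR-deficient cells, with the highest Mgst2 (150 CPM, 149.964 before rounding) and Cysltr2 (3.60 CPM). Library 37 had the highest Mgst2 of stimulated WT (334 CPM). Libraries 19 and 33 also had the lowest length slopes (−0.37 and −0.34 after centring), and that of library 37 was −0.23. The part of this slope in the values was not tested beyond the fits with it as a covariate or without both libraries. Leaving out both gave 6 DEGs among the 9 genes for LPS in WT (25.4% of all genes), 5 for LPS in AhR-deficient cells (31.3%) and 3 calls in the interaction (4.45%).

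The effect of LPS differed between the genotypes, by the interaction test of edgeR, for Lta4h (−0.84 on the log2 scale, adjusted p = 0.0361) and for Ltc4s (−2.61, adjusted p = 0.00136). The call of Ltc4s held without each library in turn, whereas that of Lta4h was lost in 15 of 24 such fits (adjusted p up to 0.0696) and with no filter on low counts (0.0872). Every stimulated library was lower than every unstimulated one in both genotypes for both genes.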

How the results depend on the processing

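Among 1170 values of single genes of the 9 under an alternative, 1096 kept their sign and call, 18 lost the call, 48 gained it and 8 changed sign. Total library size shifted the median of all genes by −0.35 (LPS in WT), −0.48 (LPS in AhR-deficient cells), −0.14 (interaction), −0.22 (genotype after LPS) and −0.09 (genotype without stimulation). With it 4 genes of the 9 passed the interaction in place of 2, and the group means of Lta4h were 210 (unstimulated WT), 283 (unstimulated AhR-deficient) and 33.6 CPM (stimulated AhR-deficient), that of Ltc4s 48.5 and that of Ggt5 6.10 CPM in unstimulated WT, each more than 1 SD away. In the interaction 5 of the 9 passed with DESeq2, 1 with no filter, 6 with the runs as a factor, 8 with the length slope and 1 to 3 as single libraries were left out. Over all genes it had 713 calls, 1125 with DESeq2, 1201 with the runs, 2879 with the length slope and 564 to 782 without single libraries. Without stimulation 2 of the 9 were DEGs between genotypes with the runs as a factor (5.62% of all genes) or no minimum fold (6.12%). With no minimum fold 6305 genes in place of 4137 passed for LPS in WT and 2096 in place of 1387 for genotype after LPS. The cause of these changes was not tested.

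Signs turned for effects near 0: Ltb4r1, LPS in WT (−0.17 with total library size), Cysltr1, genotype after LPS (−0.036 with total library size), Cysltr1, LPS in AhR-deficient cells (−0.18 to 0.030 without single libraries, 0.030 without 19 and 33, −0.54 with total library size), Cysltr2, genotype without stimulation (0.019 with Y-linked expression), Mgst2, genotype without stimulation (−0.73 to 0.18 without single libraries), Alox5ap, interaction (−0.57 to 0.080 likewise) and Cyp4f18, LPS in WT (0.048 with the length slope, −0.28 to 0.15 without single libraries, 0.11 without 19 and 33). No paired analysis was possible because the groups share no library numbers and the labels name no animals, and the runs as a factor are the only block fitted. The lowest stimulated AhR-deficient libraries held 21 Alox5 and 11 Ltc4s counts. The SEs of these LPS effects (0.45 and 0.36) were close to those in WT (0.41 and 0.33). Each gene had 1 estimate of spread shared by all 4 groups, so close SEs do not show the spread at such low counts. In stimulated AhR-deficient cells Alox5 ran from 0.401 to 3.03 CPM and Ltc4s from 0.284 to 2.91 CPM.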
